A study of Mus musculus with 16 samples.

Results

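The genes described here are 10 genes that hepatocytes around the central vein of the liver lobule express and that are known to depend on Wnt signalling: Glul, Oat, Slc1a2, Cyp2e1, Cyp1a2, Axin2, Lgr5, Tbx3, Rgn and Lect2. They were taken as a list by name, with every probe whose accession maps to 1 of these symbols, and they are 10 of the 19096 genes with a probe on the array. They had 15 probes (4 for Slc1a2, 2 for Glul, 2 for Cyp1a2 and 1 for each of the other 7 genes), and all 15 were well above background on all 16 arrays. Liver RNA came from male mice 57 weeks of age, 1 array per mouse and 4 mice per group. All groups had received N-diethylnitrosamine (DEN), a carcinogen that initiates liver tumours, at 90 mg/kg and 5 weeks of age. WT mice were C57BL/6J and KO mice carried a null allele of Gadd45b in all cells. Mice of either genotype drank normal water (WT DEN, KO DEN) or, from 7 weeks of age, water with phenobarbital (PB) at 0.5 g/l (WT DEN + PB, KO DEN + PB). The tissue was liver outside tumours. The name of the KO stock lists a further strain beside B6, so strain and genotype cannot be told apart. The replicates were separate mice.

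In the liver lobule, blood runs from the portal vein to the central vein, and hepatocytes along this path carry out different reactions. Endothelial cells of the central vein secrete Wnt ligands and R-spondin, beta-catenin then acts with factors of the TCF family in the hepatocytes nearby, and these cells make glutamine from ammonia and oxidise foreign compounds. Periportal hepatocytes instead carry out the urea cycle and gluconeogenesis. PB activates the nuclear receptor CAR, whose target genes are also largely pericentral, and tumours that PB promotes in DEN-treated mice are known to often carry an activated beta-catenin and high Glul.

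The deleted gene itself, Gadd45b, served to check the labels: its probe exceeded background on each of 8 WT arrays (-1.69 to 1.17 as log2 signal over the array's 75th percentile) and on 0 of 8 KO arrays (-7.67 to -5.79). The 75th percentile of the processed signal lay between 137 and 294 across arrays, 58.3% to 67.7% of an array's spots exceeded background clearly, and no spot was saturated. The number of arrays, 4 per group, limits the precision of each value. All 8 hepatocyte markers were tested, and 0 of them was called in any comparison. The arrays lay on 4 slides, and each slide held 1 WT DEN + PB and 1 KO DEN + PB array, whereas 1 slide held no KO DEN array and another no WT DEN array.

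Promoters of 7 of the 10 genes (250 bases before to 50 bases after the start of transcription, RefSeq on GRCm38.p6) were in the sequence table used; Lgr5, Tbx3 and Rgn were not. They are shown because a factor of the TCF family reads the Wnt signal at DNA. The motif of that family was searched as CTTTGAA or CTTTGAT on both strands, and 8.7% of all 32851 promoters of this length held at least 1 match. Of the 7, the promoters of Cyp2e1, Cyp1a2, Slc1a2 and Lect2 held 1 match each, in capitals in the lines that follow, each read along the gene's own strand. For Cyp2e1 (chr7:140763569-140763868, plus strand) the match begins 135 bases before the start. For Cyp1a2 (chr9:57683606-57683905, minus strand) it begins 244 bases before the start, for Slc1a2 (chr2:102706188-102706487, plus strand) 207 bases and for Lect2 (chr13:56548489-56548788, minus strand) 32 bases, and in these 3 genes the capitals show the motif's reverse complement. The promoters of Glul, Oat and Axin2 held no match in this window. A match is a description of the letters and not a measured site.
Cyp2e1: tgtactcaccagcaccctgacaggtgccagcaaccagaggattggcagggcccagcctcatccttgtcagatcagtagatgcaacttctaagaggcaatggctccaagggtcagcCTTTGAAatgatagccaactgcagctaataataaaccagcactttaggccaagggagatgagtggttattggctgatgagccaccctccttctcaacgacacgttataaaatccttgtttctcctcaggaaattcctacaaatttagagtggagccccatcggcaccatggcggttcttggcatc
Cyp1a2: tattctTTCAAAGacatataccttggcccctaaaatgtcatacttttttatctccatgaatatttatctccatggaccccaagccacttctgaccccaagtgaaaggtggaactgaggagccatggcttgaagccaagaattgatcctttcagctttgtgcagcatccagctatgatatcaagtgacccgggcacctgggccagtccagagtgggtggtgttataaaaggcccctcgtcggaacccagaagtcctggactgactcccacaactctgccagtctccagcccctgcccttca
Slc1a2: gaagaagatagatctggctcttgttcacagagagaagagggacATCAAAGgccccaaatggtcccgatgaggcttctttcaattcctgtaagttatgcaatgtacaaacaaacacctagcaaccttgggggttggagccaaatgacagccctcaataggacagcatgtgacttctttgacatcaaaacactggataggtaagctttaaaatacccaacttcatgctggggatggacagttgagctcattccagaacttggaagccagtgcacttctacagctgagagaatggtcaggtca
Lect2: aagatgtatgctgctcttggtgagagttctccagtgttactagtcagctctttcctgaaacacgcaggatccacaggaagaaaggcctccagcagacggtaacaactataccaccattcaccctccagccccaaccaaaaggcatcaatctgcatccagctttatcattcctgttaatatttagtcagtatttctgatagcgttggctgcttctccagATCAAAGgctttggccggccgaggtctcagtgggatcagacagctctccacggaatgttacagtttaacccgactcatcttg

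Levels are given as the log2 processed signal minus the log2 of the array's 75th percentile, and compared only within a probe. A gene was called at an adjusted p under 0.05 over all probes tested (limma, Benjamini-Hochberg) and a change of 1.5-fold or more, and its value is that of its brightest probe. Few of the 10 genes passed this test. With PB in WT, 0 of 10 were called, where 0.737% of all 13306 genes tested were; 2 of the 10, Cyp1a2 and Lect2, had an unadjusted p under 0.05, where 8.3% of all genes had. With PB in KO, 1 of 10 was called (Cyp1a2, higher), where 2.13% of all genes were called and 1.26% were called higher; 3 of the 10 (Cyp1a2, Lect2 and Axin2) had an unadjusted p under 0.05, where 13.3% of all genes had. Between KO and WT under DEN, 0 of 10 were called and 0 had an unadjusted p under 0.05, where 2.76% of all genes were called and 18.2% had such a p. Between KO and WT under DEN + PB, 1 of 10 was called (Slc1a2, higher in KO), where 7.61% of all genes were called and 1.76% were called higher; 3 of the 10 (Slc1a2, Lgr5 and Glul) had an unadjusted p under 0.05, where 23.4% of all genes had. The effect of PB was not shown to differ between the genotypes for any of the 10: the interaction called 0 of 10, as it called 0% of all genes, and 1 of 10 (Rgn) had an unadjusted p under 0.05, where 6.62% of all genes had.

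**Figure D1:**
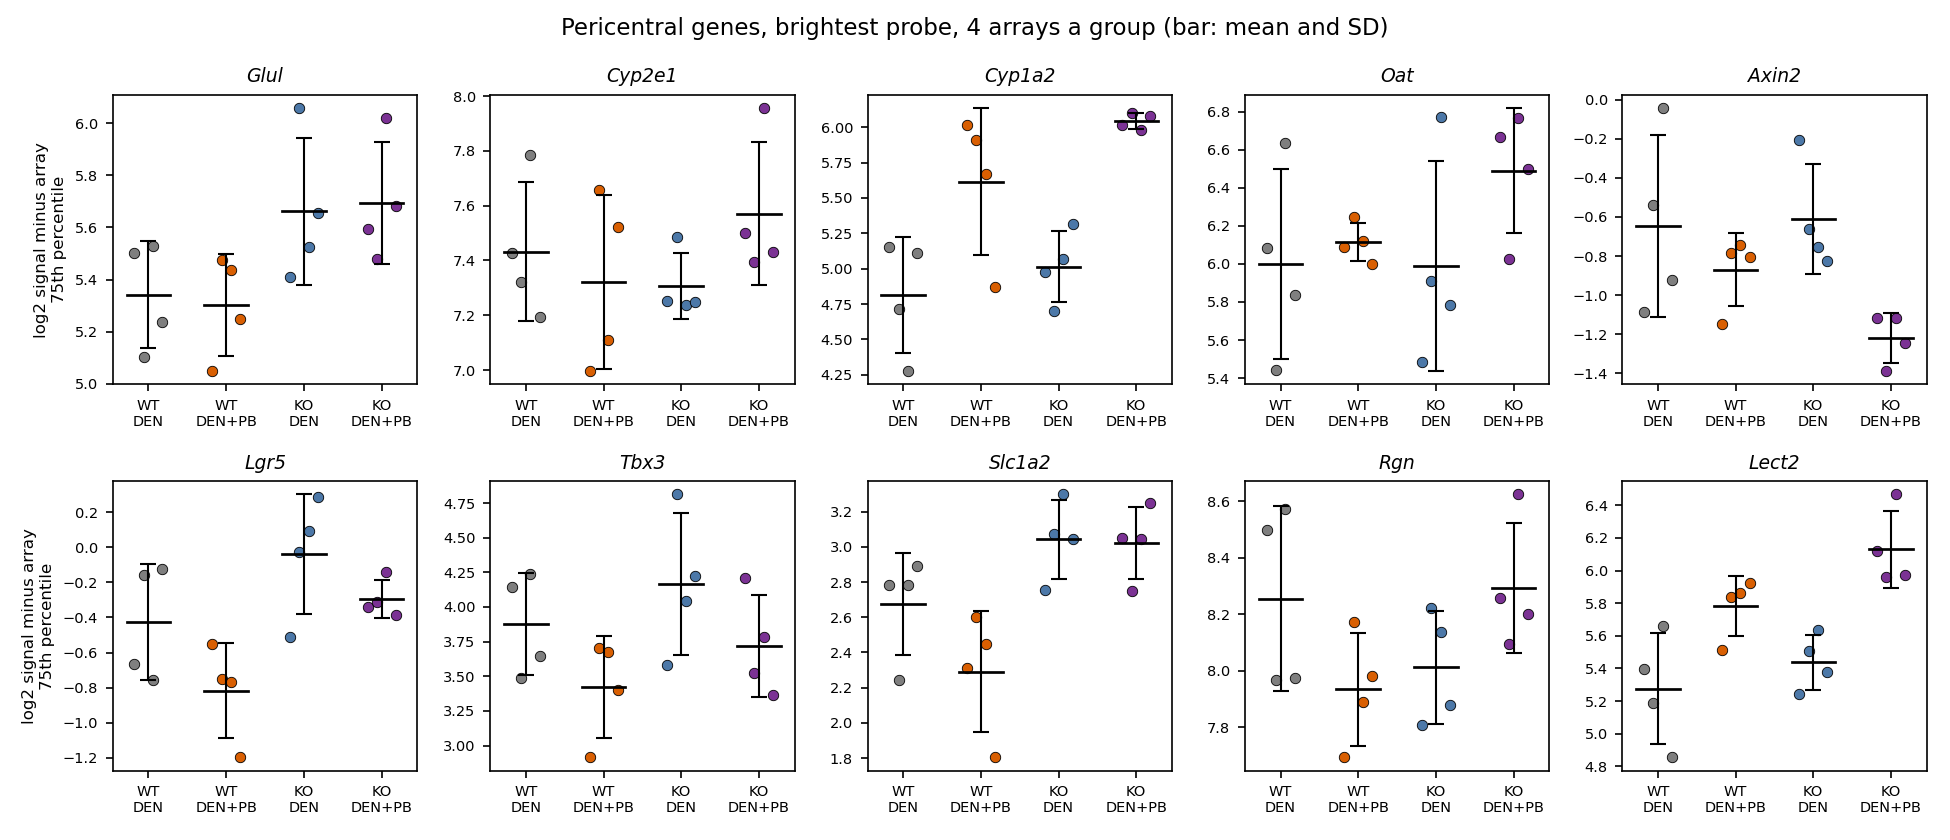
Level of each pericentral gene (brightest probe) on each of the 16 arrays, as log2 signal minus the array's 75th percentile, by group; each panel has its own vertical scale, the horizontal bar is the mean and the error bar the SD of 4 arrays. Cyp1a2 on the 4 KO DEN + PB arrays lies between 5.98 and 6.10, above the 4 KO DEN arrays, and Slc1a2 on the WT DEN + PB arrays lies between 1.80 and 2.60, below the 4 KO DEN + PB arrays.

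Glul encodes glutamine synthetase, which makes glutamine from glutamate and ammonia and is the classical marker of the hepatocytes next to the central vein. By its brighter probe the level was 5.50, 5.10, 5.53 and 5.24 on the WT DEN arrays and 5.05, 5.48, 5.44 and 5.25 on the WT DEN + PB arrays. It was 5.41, 6.06, 5.52 and 5.66 under KO DEN and 5.59, 5.48, 6.02 and 5.68 under KO DEN + PB. PB arrays overlapped with DEN arrays in both genotypes, and the log2 changes with PB were -0.04 ± 0.17 (SE) in WT and 0.03 ± 0.17 in KO, both with a 95% interval inside 1.5-fold in either direction. Under DEN + PB the 4 KO arrays lay just above the 4 WT arrays (0.39 ± 0.17, adjusted p = 0.193). The exact permutation p was therefore 0.0286, the smallest that 4 against 4 arrays allow. For the same reason the difference was positive on 4 of 4 slides (0.21 to 0.58), which adds no support. The second probe of Glul did not share this difference (-0.06 ± 0.36), and its arrays spread more widely, from 1.24 to 2.80 under WT DEN + PB.

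Oat encodes ornithine aminotransferase, which feeds ornithine carbon into glutamate in the same cells. Its level ranged from 5.44 to 6.64 under WT DEN, from 6.00 to 6.25 under WT DEN + PB, from 5.49 to 6.77 under KO DEN and from 6.03 to 6.77 under KO DEN + PB. All groups overlapped. The largest difference of Oat, 0.50 ± 0.27 with PB in KO, did not pass (adjusted p = 0.504). Under DEN, KO and WT differed by -0.01 ± 0.27, with an interval (-0.58 to 0.56) only just inside 1.5-fold.

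Slc1a2 encodes a transporter that takes up glutamate. By its brightest probe the level was 2.78, 2.25, 2.78 and 2.89 under WT DEN, and 2.31, 2.60, 2.45 and 1.80 under WT DEN + PB. It was 2.75, 3.07, 3.30 and 3.04 under KO DEN, and 3.05, 2.75, 3.04 and 3.25 under KO DEN + PB. The means in order were KO DEN (3.04), KO DEN + PB (3.02), WT DEN (2.68) and WT DEN + PB (2.29), and no 2 neighbours in this order differed past the threshold in a comparison that was tested. Under DEN + PB, Slc1a2 was higher in KO by 0.73 ± 0.19, or 1.66-fold (adjusted p = 0.031). All 4 KO arrays lay above all 4 WT arrays, which alone sets the exact permutation p at 0.0286. It also makes the difference positive on 4 of 4 slides (0.44 to 1.25), so the slides add no support. Under DEN the difference was 0.37 ± 0.19 (adjusted p = 0.308), and PB in WT gave -0.38 ± 0.19 (adjusted p = 0.739) against -0.02 ± 0.19 in KO. These comparisons share arrays, so their values are not separate evidence.

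The other 3 probes of Slc1a2 were also higher in KO under DEN + PB, by 0.45 ± 0.26, 0.60 ± 0.23 and 0.65 ± 0.24, and none of these was called (adjusted p = 0.324, 0.122 and 0.114). In 3 of the 4 probes the KO and WT arrays did not overlap. The call of Slc1a2 rested on the processing and on single arrays. With normexp, a model-based background correction of the raw signals that was run as an alternative, the difference was 0.59 (adjusted p = 0.724), with normexp without spots of bright local background 0.36 (0.337), and in the series table without scaling 0.39 (0.485). The call was also lost without WT DEN + PB replicate 1 or 4 or without KO DEN + PB replicate 1, 3 or 4 (adjusted p = 0.0566 to 0.105), and with quantile normalization (0.0514). Without WT DEN + PB replicate 4, the lowest array, the difference was 0.57.

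**Figure D2:**
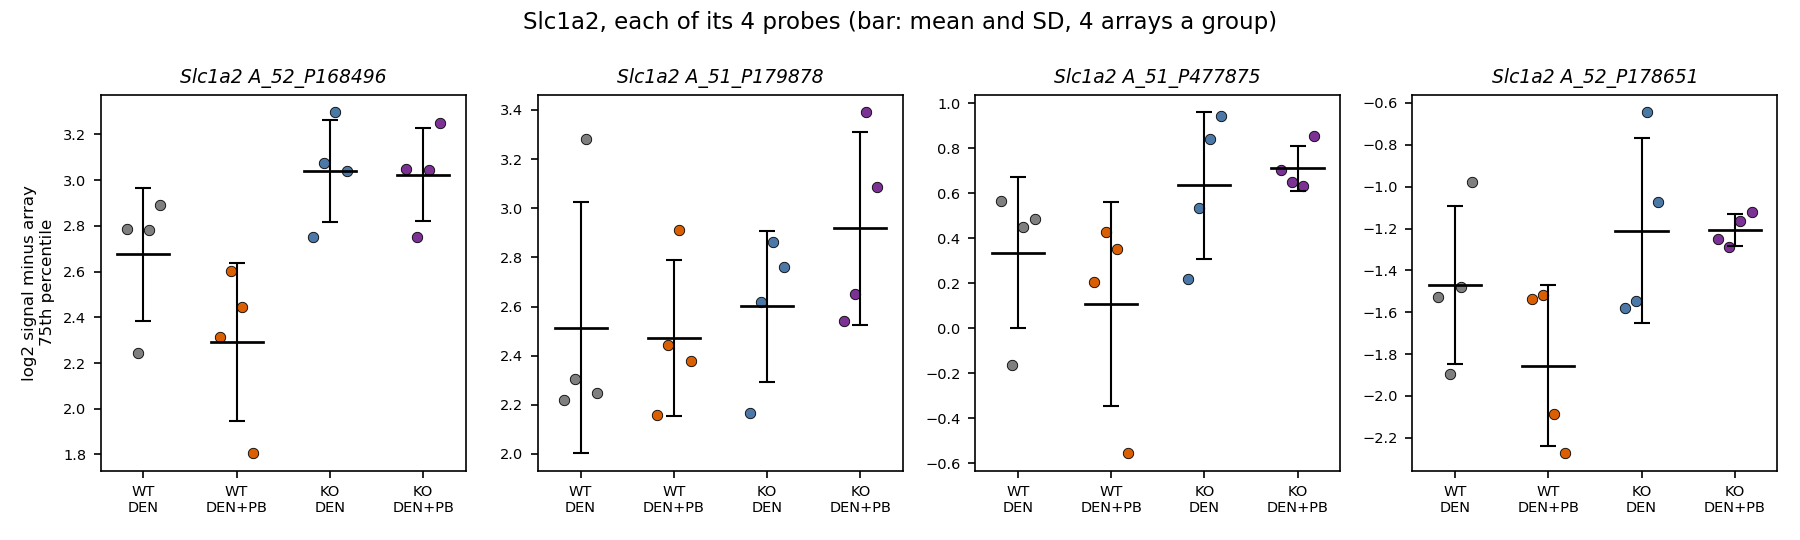
Level of Slc1a2 by each of its 4 probes on the 16 arrays, as log2 signal minus the array's 75th percentile, by group, with the mean and SD of 4 arrays and a vertical scale of its own in each panel. In 3 of the 4 probes all KO DEN + PB arrays lie above all WT DEN + PB arrays; in A_51_P179878 they overlap.

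Cyp1a2 and Cyp2e1 are cytochrome P450 enzymes of pericentral hepatocytes: Cyp1a2 oxidises aromatic amines and is also a target of the aryl hydrocarbon receptor (AHR), and Cyp2e1 oxidises ethanol and small nitrosamines, DEN among them. Cyp1a2 had levels of 5.15, 4.71, 4.28 and 5.11 under WT DEN and of 6.02, 5.91, 5.67 and 4.87 under WT DEN + PB. In KO the levels were 4.97, 4.70, 5.07 and 5.32 under DEN and 6.01, 6.10, 5.98 and 6.08 under DEN + PB. In KO all PB arrays lay above all DEN arrays, and Cyp1a2 rose with PB by 1.03 ± 0.24, or 2.04-fold (adjusted p = 0.037; exact permutation p = 0.0286). In WT 3 of the 4 PB arrays lay above all DEN arrays and replicate 4 did not, and the change was 0.80 ± 0.24 (adjusted p = 0.228; exact permutation p = 0.0857). Without WT DEN + PB replicate 4 the change in WT was 1.05 (adjusted p = 0.0318). This was the only call in WT among the 16 fits that left out 1 array (0.62 to 1.05, adjusted p up to 0.537). The interaction was -0.23 ± 0.34 (95% interval -0.94 to 0.49), so these data do not separate the PB effect on Cyp1a2 in WT from that in KO.

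The second probe of Cyp1a2 changed with PB by a like amount, 0.92 ± 0.28 in WT (adjusted p = 0.251) and 1.04 ± 0.28 in KO (adjusted p = 0.0785). On the 3 slides that held both groups, the PB difference of Cyp1a2 in KO lay between 0.79 and 1.38 for the brighter probe. Its positive sign was fixed, since the KO arrays of the 2 groups did not overlap, and it adds no support. In WT the difference by the same probe ran from -0.04 to 1.74 over 3 slides. In KO Cyp1a2 was no longer called with the slide as a block (1.11, adjusted p = 0.057), with quantile normalization (0.127), and without any 1 KO DEN + PB array or without KO DEN replicate 1, 2 or 3 (0.0645 to 0.104), while the change itself stayed between 0.92 and 1.13 when 1 array was left out. Of 6 genes tested in a separate list of AHR targets, which also holds the receptor gene Ahr itself, only Nqo1 was called with PB. Of all genes, 0.737% were called with PB in WT and 2.13% in KO. Nqo1, a quinone reductase that is also inducible in other ways, rose by 1.13 ± 0.22 in WT and 1.14 ± 0.22 in KO (adjusted p = 0.0233 and 0.0134). With normexp it was not called (adjusted p = 0.954 and 0.212). The change was positive for 5 of the 6 in each genotype, with medians of 0.59 in WT and 0.37 in KO. In each genotype 3 of the 6 had an unadjusted p under 0.05, where 8.3% of all genes had in WT and 13.3% in KO.

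Cyp2e1 ranged from 7.20 to 7.78 under WT DEN, from 7.00 to 7.66 under WT DEN + PB, from 7.24 to 7.49 under KO DEN and from 7.39 to 7.96 under KO DEN + PB. All groups overlapped, and the log2 changes lay between -0.13 and 0.26. The PB effect in WT and the genotype effect under DEN had 95% intervals inside 1.5-fold.

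Axin2, Lgr5 and Tbx3 belong to the Wnt pathway or answer to it. Axin2 encodes a scaffold of the complex that degrades beta-catenin and is a feedback target of the pathway in most tissues. Its level was -1.09, -0.54, -0.04 and -0.92 under WT DEN, and -1.15, -0.78, -0.75 and -0.81 under WT DEN + PB. It was -0.20, -0.66, -0.76 and -0.82 under KO DEN and -1.12, -1.39, -1.12 and -1.24 under KO DEN + PB. The 4 KO DEN + PB arrays lay below the 4 KO DEN arrays (-0.61 ± 0.21; exact permutation p = 0.0286), but the difference did not pass over all probes (adjusted p = 0.183). Of all genes, 4.01% had no overlap in this direction. In WT the PB difference was -0.22 ± 0.21, and between KO and WT it was 0.04 ± 0.21 under DEN, with an interval inside 1.5-fold, and -0.35 ± 0.21 under DEN + PB. Axin2 was the 1 gene of the 10 with a lower level in KO under DEN + PB, and the difference was negative on 4 of 4 slides (-0.46 to -0.24).

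Lgr5 encodes a receptor for R-spondins that strengthens Wnt signalling. Its level was -0.66, -0.16, -0.75 and -0.13 under WT DEN, -0.55, -0.75, -0.77 and -1.20 under WT DEN + PB, -0.51, -0.03, 0.09 and 0.29 under KO DEN, and -0.34, -0.31, -0.14 and -0.39 under KO DEN + PB. Under DEN + PB the KO arrays lay above the WT arrays (0.52 ± 0.20, adjusted p = 0.127; exact permutation p = 0.0286), and under DEN they overlapped (0.39 ± 0.20, adjusted p = 0.289). With PB the changes were -0.39 ± 0.20 in WT and -0.26 ± 0.20 in KO. Tbx3 encodes a T-box transcription factor that is a beta-catenin target in hepatocytes. Its level ranged from 2.92 to 4.81 over all 16 arrays, and its changes with PB, -0.46 ± 0.27 in WT and -0.45 ± 0.27 in KO, did not pass (adjusted p = 0.818 and 0.578) although both were negative on each of the 3 slides that held both groups.

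Lect2 and Rgn complete the list. Lect2 encodes a protein that hepatocytes secrete and that is a known beta-catenin target. Its level was 5.40, 5.19, 5.66 and 4.86 under WT DEN, and 5.51, 5.84, 5.86 and 5.92 under WT DEN + PB. It was 5.24, 5.50, 5.63 and 5.38 under KO DEN, and 6.12, 5.96, 6.47 and 5.97 under KO DEN + PB, where every array lay above every array of the other 3 groups. The log2 difference with PB was 0.69 ± 0.18 in KO (1.61-fold, adjusted p = 0.066; exact permutation p = 0.0286) and 0.51 ± 0.18 in WT (adjusted p = 0.395; exact permutation p = 0.0571). Lect2 passed in KO under quantile normalization (0.59, adjusted p = 0.0215), with normexp without spots of bright background (0.66, adjusted p = 0.014) and without WT DEN replicate 3 or 4 (adjusted p = 0.0424 and 0.0491). It did not pass with normexp (0.66, adjusted p = 1), in the series table without scaling (0.39, adjusted p = 0.448) or without any 1 of the other 14 arrays (adjusted p up to 0.189). Rgn encodes regucalcin, a calcium-binding lactonase of the path to ascorbate. Its level lay between 7.69 and 8.63 over all arrays. PB gave -0.32 ± 0.18 in WT and 0.28 ± 0.18 in KO, and the interaction was -0.60 ± 0.26 (adjusted p = 0.772, unadjusted p = 0.0316).

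**Figure D3:**
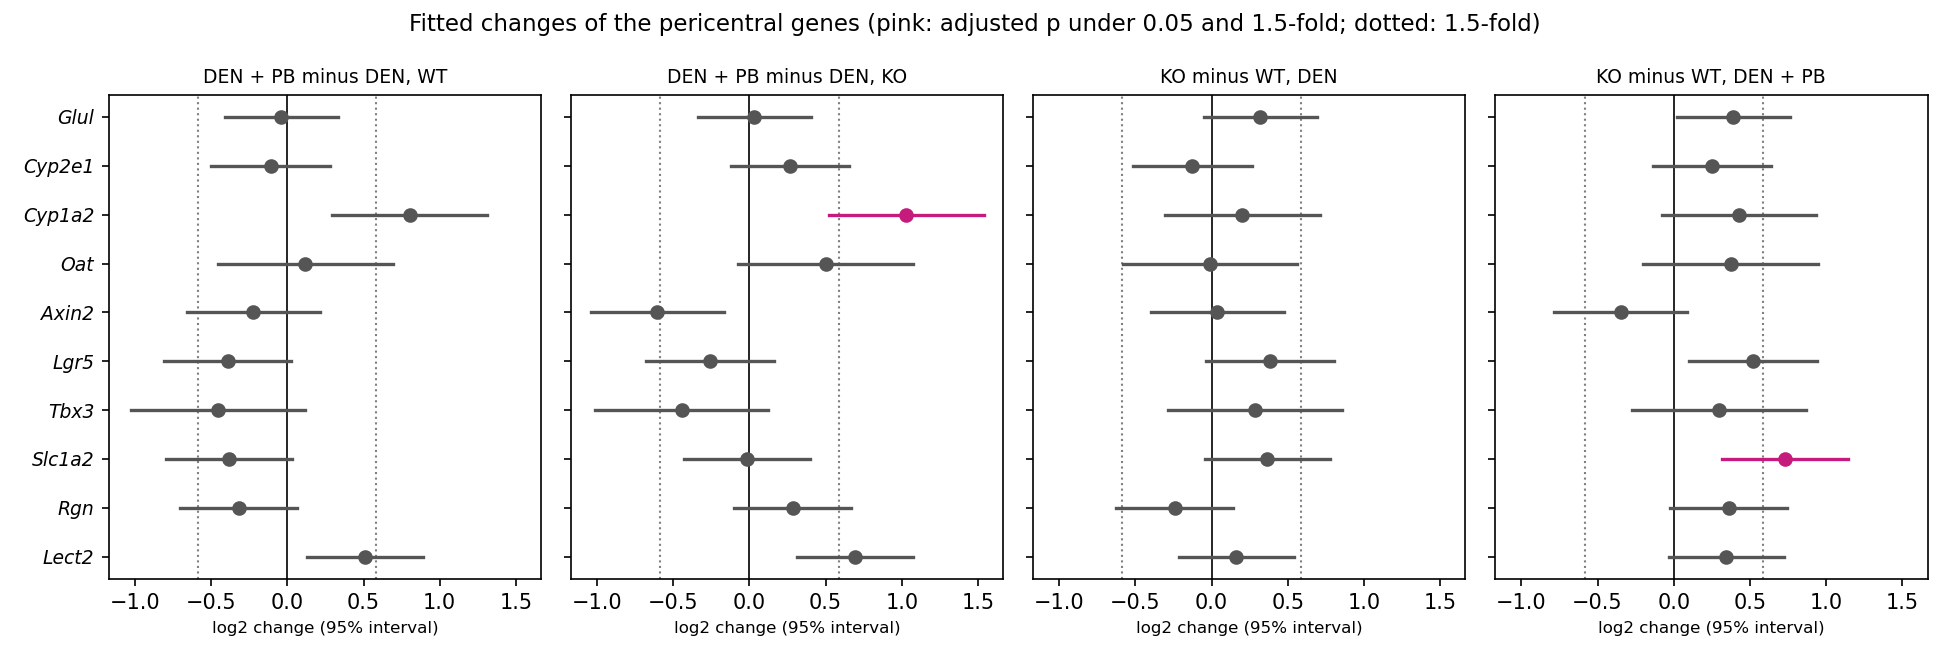
Fitted log2 change of each pericentral gene (point) with its 95% interval (line) in 4 comparisons; dotted lines mark 1.5-fold in either direction and pink marks a gene called at an adjusted p under 0.05 and 1.5-fold. Cyp1a2 with PB in KO (1.03) and Slc1a2 in KO under DEN + PB (0.73) are pink, and 9 of the 10 points of the last panel lie to the right of 0.

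Set side by side, the 10 genes had a median log2 change of -0.17 with PB in WT (3 positive, 7 negative) and of 0.15 with PB in KO (6 positive, 4 negative). Between KO and WT the median was 0.18 under DEN (7 positive) and 0.37 under DEN + PB (9 positive). The medians over all genes tested were -0.02, 0.01, -0.04 and 0.03. Under DEN + PB, 4 of the 10 (Glul, Lgr5, Slc1a2 and Lect2) had all KO arrays above all WT arrays, and 7.46% of all genes did. In the lower direction it was 0 of the 10, and 9.85% of all genes. With PB in KO, 2 of the 10 (Cyp1a2 and Lect2) did not overlap in the higher direction, where 4.58% of all genes did not. With PB in WT, 0 of the 10 were free of overlap, where 3.21% of all genes were in the higher and 1.95% in the lower direction, and between KO and WT under DEN it was again 0 of the 10, where 4.59% and 6.34% were. Across 5 other ways to scale or correct the arrays, the median of the 10 genes under DEN + PB stayed above that of all probes, by 0.17 to 0.62. It was 0.03 in the series table without scaling, where the median over all probes was itself shifted to -0.29. The 10 genes were not independent of each other, and this description over the list carries no test.

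By the brightest probe of each gene, changes of 1.5-fold in either direction lay outside the 95% interval for Glul and Cyp2e1 with PB in WT and for Glul and Slc1a2 with PB in KO. The same held for Cyp2e1, Oat, Axin2 and Lect2 between KO and WT under DEN, with Oat only just inside (-0.58 to 0.56). It held for 0 of the 10 between KO and WT under DEN + PB. These bounds are those of the main processing. With normexp, Oat under DEN stood at 0.22 ± 0.37 and Slc1a2 with PB in KO at 0.26 ± 0.32, so that processing does not bound them at 1.5-fold. Other probes were less precise: the interval of the second Glul probe ran from -0.52 to 0.99 with PB in WT and from -0.63 to 0.88 in KO, and that of Slc1a2 probe A_51_P179878 from -0.23 to 0.87 with PB in KO, so these do not bound the change at 1.5-fold.

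The ligands and the secretion of Wnt proteins were examined next, with 8 of 12 listed genes tested. Of these 0 was called with PB in either genotype. Under DEN + PB, 2 of 8 were called lower in KO, where 5.85% of all genes were, and 4 of 8 had a negative difference. Wls, the carrier that takes Wnt proteins to the cell surface, was at -0.30, -0.15, 0.18 and 0.43 in WT and at -0.93, -1.20, -0.77 and -0.99 in KO (-1.01 ± 0.19, adjusted p = 0.00358). Wnt4, a ligand that stromal cells among others express, was at -3.21, -3.02, -3.09 and -2.70 in WT and at -4.63, -3.64, -3.87 and -3.92 in KO (-1.01 ± 0.22, adjusted p = 0.0109). In both genes the groups did not overlap. With normexp, Wls stood at -0.73 (adjusted p = 0.144) and Wnt4 at -0.41 (0.889), and without spots of bright background Wnt4 stood at -0.083 (0.716). Wnt2, Wnt9b and Rspo3, the ligands known from central vein and sinusoidal endothelium, are named here for that role and with their values known: none was called, and their differences between KO and WT under DEN + PB were -0.52, 0.26 and -0.39 (adjusted p = 0.187, 0.443 and 0.269). Rspo3 with PB in KO stood at -0.81 (adjusted p = 0.0578).

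Of 18 Wnt receptors, signal transducers and transcription factors tested, 1 was called in 1 comparison: Lrp6, a Wnt co-receptor, was higher in KO under DEN (0.64 ± 0.17, adjusted p = 0.0477), with overlapping groups, and this call was lost with the slide as a block (0.77, adjusted p = 0.0644), under median scaling (0.55, adjusted p = 0.119) and with normexp (0.18, adjusted p = 0.719). Of 13 inhibitors and feedback genes tested, 2 were called, each in 1 comparison of the genotypes. Of all genes, 2.76% were called in either direction between KO and WT under DEN and 7.61% under DEN + PB. Between KO and WT under DEN + PB, 11 of the 13 had a positive and 2 a negative difference, with a median of 0.16. Dkk3, of the Dickkopf family of secreted proteins, was lower in KO under DEN + PB (-0.68 ± 0.14, adjusted p = 0.00734), but stood at -0.33 (0.938) with normexp and at -0.039 (0.853) with normexp without spots of bright background. Sfrp1, a secreted protein that binds Wnts, was called higher in KO under DEN (adjusted p = 0.00132), but it was well above background on only 1 of the 4 WT DEN arrays, so the size of its difference was not measured, and with normexp it was not called (adjusted p = 0.903). Of the feedback genes that answer to beta-catenin beside Axin2, Nkd1, Notum, Rnf43, Sp5 and Znrf3, named for that role and with their values known, were tested and not called in any comparison. Znrf3 stood 0.58 above WT in KO under DEN + PB (adjusted p = 0.018), just under the 1.5-fold threshold.

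Further genes of the pericentral hepatocyte were read from separate lists. Of 14 other pericentral genes tested, 1 was called with PB: Rhbg, an ammonium transporter, rose by 1.92 ± 0.39 in WT (adjusted p = 0.0287) and by 1.79 ± 0.39 in KO (adjusted p = 0.0257). These calls of Rhbg were lost with the slide as a block (adjusted p = 0.0713 and 0.0545), with normexp (0.261 and 0.0534), and on leaving out any of 6 arrays in WT and 4 in KO. Of 10 pericentral genes that are also known to be induced through CAR, 5 were called higher with PB in WT and 7 in KO. Of all genes, 0.737% and 2.13% were called in either direction. The change was positive for 9 of the 10 in WT and for 10 in KO, with list medians of 0.78 and 1.12. Cyp2b10, the classical CAR target, rose by 6.69 ± 0.62 and 6.80 ± 0.62, Cyp2c54 by 1.26 ± 0.18 and 1.85 ± 0.18, and the glutathione transferase Gstm2 by 1.76 ± 0.21 and 1.68 ± 0.21. Cyp2c37 was called in KO only (1.16 ± 0.17, adjusted p = 0.00122), and its difference between the genotypes did not pass, since the interaction called 0 genes. Between KO and WT, 0 of these 10 was called under either treatment.

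Of 15 periportal genes tested, 6 were called higher and 1 lower in KO under DEN + PB, where 1.76% of all genes were called higher and 5.85% lower. The difference was positive for 12 of the 15 and negative for 3, with a median of 0.48. Gls2, the liver glutaminase, was higher by 0.73 ± 0.16, Ass1 of the urea cycle by 0.74 ± 0.17, and Hal, which degrades histidine, by 0.80 ± 0.18 (adjusted p = 0.00911, 0.0117 and 0.0117). None of these 3 was called with normexp (adjusted p = 0.295, 0.293 and 0.312) or without scaling (0.39, 0.41 and 0.46), nor were Gls2 and Ass1 under quantile normalization (0.58 and 0.52). Cdh1, which encodes E-cadherin and is also expressed by bile duct cells, was lower (-2.64 ± 0.55, adjusted p = 0.00784; with normexp -2.02, adjusted p = 0.0794). Under DEN, 0 of 15 was called (median 0.23), and with PB in either genotype 0 of 15 was called.

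Under DEN, the endothelial markers had a median difference between KO and WT of -0.52, and the leukocyte and Kupffer cell markers of -0.67. There 2 of 10 and 3 of 10 were called lower, where 2.76% of all genes were called in either direction. Many markers of other liver cells were also lower in KO under DEN + PB, where 5.85% of all genes were called lower. Of 10 endothelial markers, 4 were called lower (median -0.75), with Pecam1 at -1.13 ± 0.16, Tek at -1.13 ± 0.18, Clec4g at -1.24 ± 0.20 and Thbd at -0.97 ± 0.24. Of 10 leukocyte and Kupffer cell markers, 7 were called lower (median -1.16), with Cd68 at -1.77 ± 0.20, Adgre1 at -1.95 ± 0.33, Clec4f at -1.17 ± 0.20 and Lyz2 at -2.02 ± 0.36. Of 8 stellate cell markers, Reln (-0.84), Lrat (-1.62) and Col1a2 (-0.87) were called lower, and of 6 cholangiocyte markers Krt19 (-0.93), Krt7 (-1.06) and Epcam (-1.20). The difference was positive for 2 of the 10 leukocyte and Kupffer cell markers and for 1 of the 8 stellate cell markers. It was positive for 0 of the endothelial and 0 of the cholangiocyte markers. With normexp only Cd68 of these 14 named markers was called, and the differences of Pecam1, Krt19 and Epcam were -0.51, -0.46 and -0.50. Of 8 hepatocyte markers 7 were higher in KO and 0 was called, with a median of 0.19 that was 0.01 under quantile normalization and -0.15 without scaling. The log2 of the summed level of the endothelial markers was 5.29 to 5.57 under WT DEN + PB and 4.42 to 4.65 under KO DEN + PB. That of the leukocyte markers was 6.08 to 6.29 and 4.80 to 5.88, that of the stellate markers 4.71 to 5.11 and 3.89 to 4.42, that of the cholangiocyte markers 4.21 to 5.17 and 3.66 to 4.02, and that of the hepatocyte markers 10.52 to 10.79 and 10.76 to 11.04. In RNA of whole tissue, fewer cells of a type cannot be told apart from less RNA per cell, and the part of these differences in the levels of the 10 genes, or of Wls and Wnt4, was not tested.

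**Figure D4:**
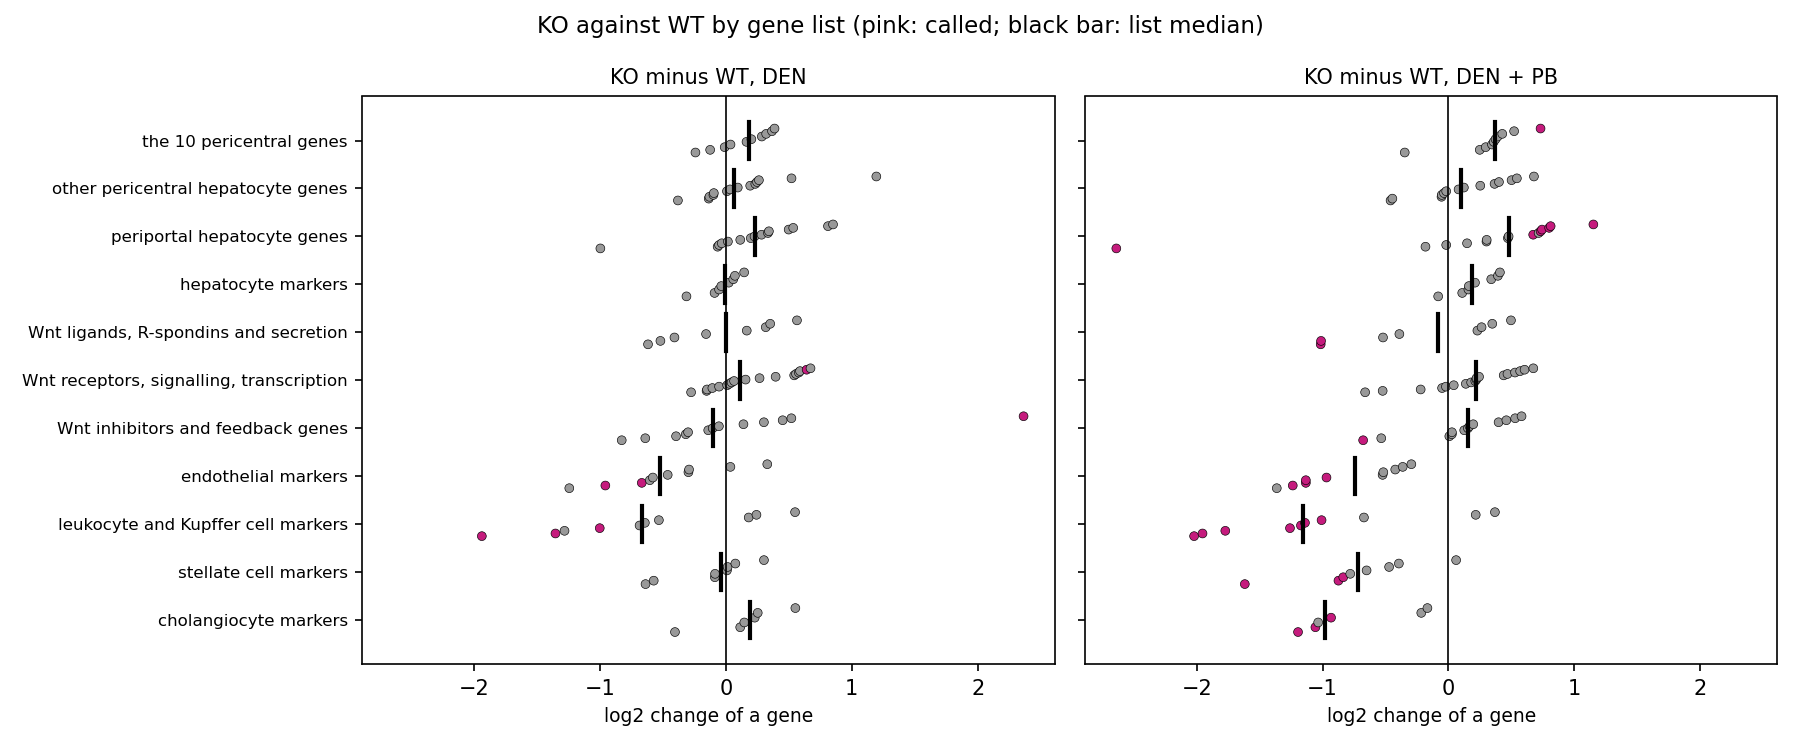
Log2 change of KO against WT of each gene tested (point, spread vertically within its list by rank) under DEN and under DEN + PB, by gene list; black bars are list medians and pink points genes called. The median of the 10 pericentral genes is 0.18 and 0.37, that of the periportal genes 0.23 and 0.48, and that of the endothelial markers -0.52 and -0.75; the pink point far right in the first panel is Sfrp1, whose size was not measured.

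The genes whose level followed Glul most closely over the 16 arrays were Trappc5 (Pearson r = 0.926), H6pd (0.924), Tapbp (0.915), Zfp329 (0.912) and Dusp11 (0.91). Those nearest to Axin2 were the ROSA26 transcript Gt(ROSA)26Sor (0.924), 4921524J17Rik (0.905), Frrs1 (0.898), Zfp740 (0.886) and Tmem168 (0.882). The 10 pericentral genes were left out of this ranking, so it does not show how closely they follow Glul or Axin2. These values are the highest among the other genes tested, over 16 arrays that share groups and slides, and they are given as a description.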

How the data were processed

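Liver RNA of 16 mice (4 groups of 4) was hybridised to 1-colour (Cy3) Agilent whole mouse genome arrays. The deposited scanner files, written by Feature Extraction 12.0.3.1, hold a background-corrected intensity on a linear scale, and the intensity table that the authors deposited for the series holds the means of the same signal, to within 0.0005%; neither is scaled between arrays. Groups came from the labels. No label says that replicates were handled apart beyond being separate mice. Spots with an outlier mark were left out (71 to 122 per array), and the log2 signal minus the log2 of the array's 75th percentile was analysed. Probes were tested where the scanner software marked them well above background on every array of 1 or more groups (24457 of 41174, 59.4%). Accessions were named through a RefSeq table (GRCm38.p6), which gave 28223 probes (68.5%) a symbol; the array design is on mm9, so no array coordinates are given. A gene takes its brightest probe.

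Group means were fitted over all 16 arrays with limma 3.58.1 in R 4.3.3, p was adjusted by Benjamini-Hochberg over all probes tested, and the thresholds, an adjusted p under 0.05 and 1.5-fold, are those of the study's methods; SE and 95% intervals come from the fit. The exact permutation tests were two-sided over 70 assignments and allow no p under 0.0286. The fit was run on simulated data with independent noise and planted changes larger than any of the 10 genes showed. It therefore does not show how well changes of the size reported here are found. Named beside the 10 genes were the genes of each other list called in at least 1 comparison, or the 4 with the lowest adjusted p where over 4 were called, and the 5 genes nearest to Glul and to Axin2 by Pearson r; exceptions are stated in the text. The members and the lists were chosen with earlier results of these data known. Alternatives were normexp (offset 50, on the median signals, since the files used hold no mean signal), quantile and median scaling, the series table, other filters, a slide or replicate block, other fits, and leaving out each array. Normexp without spots of local background over 3 times the array's median was added after the data were seen. Replicate numbers did not pair the mice: deviations of same-numbered arrays correlated between -0.213 and 0.355.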

Additional observations from a re-analysis of the deposited data

Results flagged for a closer look

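Each of the 15 probes was examined in each group for an array far from the other 3, in 60 sets of 4 arrays, and 5 sets held one; about 5% of such sets would by chance. Cyp2e1 stood at 7.49 on KO DEN replicate 2 against 7.24 to 7.25 on the other arrays of that group, and Axin2 at -1.15 on WT DEN + PB replicate 1 against -0.81 to -0.75. The other 3 sets were probes of Slc1a2 under WT DEN: 2.25 on replicate 2 by the brightest probe (others 2.78 to 2.89), -0.16 on replicate 2 by A_51_P477875 (others 0.45 to 0.57), and 3.28 on replicate 3 by A_51_P179878 (others 2.22 to 2.31). Without WT DEN replicate 2 or 3 the call of Slc1a2 under DEN + PB, which does not use these arrays for its means, was kept (adjusted p = 0.0238 and 0.034).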

How the results depend on the processing

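Of 640 values of the 10 genes under 13 other settings, 604 kept their sign and 36 turned it, all of them differences that had not passed the test; among the other lists, the called Sfrp1 and Itgam turned theirs. The count called with PB in KO (1) was 0 under normexp, with the series table without scaling, with no filter on dim probes, with the slide as a block and without moderation, and 2 (Cyp1a2 and Lect2) under normexp without spots of bright background. With the replicate block it was also 0 (Cyp1a2 1.03, adjusted p = 0.0613), and the block, which the numbers do not justify, ended no other call of the 10. Quantile normalization called 1 with PB in WT (Lect2) and 0 under DEN + PB. The count called under DEN + PB (1) was also 0 under both forms of normexp, with the series table, with no filter and with only the arrays compared. Leaving out 1 array gave 0 to 2 called with PB in KO, 0 to 1 with PB in WT and 0 to 1 between genotypes under DEN + PB. The cause of these changes was not tested. Without scaling, the median of all probes moved to -0.29 with PB in KO and between genotypes under DEN + PB and to 0.37 for the interaction. Signs turned as follows. Normexp: with PB in KO, Slc1a2 0.26 (also without bright spots, 0.26); between genotypes under DEN, Cyp2e1 0.095, Oat 0.22, Axin2 -0.044, Rgn 0.032 and Sfrp1 -0.12. Without bright spots, Tbx3 0.076 for the interaction and the leukocyte marker Itgam 0.076 between genotypes under DEN + PB. Quantile: with PB, Glul 0.049 in WT and -0.041 in KO and Cyp2e1 0.011 in WT; Oat 0.013 between genotypes under DEN; and for the interaction Glul 0.091, Tbx3 0.10 and Lect2 0.016. Series table: with PB, Glul 0.062 in WT, and in KO Glul -0.26, Cyp2e1 -0.031 and Rgn -0.013; between genotypes, Oat 0.049 under DEN, and Cyp2e1 -0.090 and Tbx3 -0.042 under DEN + PB; and for the interaction Glul 0.33, Cyp2e1 0.023, Cyp1a2 0.17, Oat 0.013, Lgr5 0.26, Tbx3 0.39, Slc1a2 0.032 and Lect2 0.22. Median scaling: Slc1a2 0.013 with PB in KO and Axin2 -0.056 under DEN. Slide block: Oat -0.011 with PB in WT and Slc1a2 0.074 with PB in KO. Mean over probes: Glul 0.10 with PB in WT and 0.019 for the interaction, and Slc1a2 0.095 with PB in KO. Leaving out 1 array, values that crossed 0 ranged, with PB in WT, from -0.12 to 0.044 (Glul), -0.22 to 0.0071 (Cyp2e1) and -0.070 to 0.33 (Oat). With PB in KO they ranged from -0.078 to 0.16 (Glul) and -0.11 to 0.073 (Slc1a2), and under DEN from -0.27 to 0.20 (Oat) and -0.11 to 0.24 (Axin2). For the interaction they ranged from -0.20 to 0.037 (Glul), -0.40 to 0.023 (Cyp1a2), -0.25 to 0.021 (Lgr5) and -0.23 to 0.18 (Tbx3). Of 61 calls of genes of the other lists, 49 were kept with the slide as a block, 53 with the replicate block, 54 under quantile normalization, 37 with the series table, 8 under normexp and 42 under normexp without spots of bright background.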

Other observations

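Genes that carry or convert the amino acids on which Glul, Oat and Slc1a2 act were read in a list of 19 genes tested. Slc1a5, a transporter of neutral amino acids including glutamine, was lower in KO in both comparisons of the genotypes, with differences of -1.05 ± 0.17 under DEN (adjusted p = 0.00346) and -1.42 ± 0.17 under DEN + PB (adjusted p = 0.000159; the call under DEN was lost with normexp, adjusted p = 0.128, and without scaling, 0.0824), while the glutamate transporter Slc1a2 was higher in KO under DEN + PB. On the 8 WT arrays Slc1a5 lay between -1.10 and -0.53, and on the 8 KO arrays between -2.38 and -1.73. Got1, the cytosolic aspartate aminotransferase, was higher in KO under DEN + PB by 0.88 ± 0.17 (adjusted p = 0.0047), but was not called with normexp (adjusted p = 0.283) or without scaling (0.54, adjusted p = 0.342). Slc1a1, a further glutamate transporter, was not well above background on any DEN array and was above it on all DEN + PB arrays. It entered the test only through the PB groups, so its calls with PB (adjusted p = 0.0473 in WT and 0.0069 in KO) are no separate support. With the main processing it was at least 2.32-fold higher with PB in WT and at least 2.58-fold higher in KO. The call in WT was kept in 2 of 16 fits that left out 1 array (adjusted p up to 0.177) and was lost with the slide as a block (0.121). With normexp the log2 change was 0.13 in WT and 0.66 in KO, both below these bounds, and neither was called. In this list 4 of the 19 genes were called higher and 2 lower in KO under DEN + PB, with a median of 0.26. Of all genes, 1.76% were called higher and 5.85% lower in that comparison.

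Cyp1b1, an AHR target that cells other than hepatocytes also express, was lower in KO under DEN + PB (-1.15 ± 0.22, adjusted p = 0.00514), where Cyp1a2 stood at 0.43 ± 0.24. With normexp Cyp1b1 stood at -0.46 (adjusted p = 0.837). The cholangiocyte keratins Krt7 and Krt19 rose with PB in WT, by 1.16 ± 0.23 and 1.27 ± 0.19 (adjusted p = 0.022 and 0.00208). With normexp the changes were 0.48 and 0.33 and neither was called, and Krt7 was called under 6 of 13 other settings and in 11 of 16 fits that left out 1 array. With PB in KO, 0 of 6 cholangiocyte markers was called; the difference between the PB effects did not pass for Krt7 or Krt19 (adjusted p = 0.325 and 0.162). Of 10 pancreatic acinar markers, 4 were tested and 0 was called in any comparison.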
